A study of Mus musculus with 9 samples.

Results

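The knockout course from day 0 to day 4 comprises 4 of the 9 libraries of the series. They are embryoid bodies at day 4 of the Hnrnpll knockout lines G6 and H8, and the stem cells of the same lines at day 0. The libraries were chosen by their labels alone (genotype, line and day), and every gene of the deposited tables was considered. Of 49326 named gene identifiers, 24794 had enough counts to be tested.

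The cells were mouse embryonic stem cells, labelled Hnrnpll-/- in the knockout lines and wild type in the comparison cells. At day 0 they grew in serum with the cytokine LIF (leukemia inhibitory factor), and the bodies were made in hanging drops. PolyA+ RNA was sequenced. The groups used here are knockout day 4 (2 libraries), knockout day 0 (2 libraries), wild type day 4 (1 library) and wild type day 0 (1 library). The labels give no allele, strain or promoter. Whether G6 and H8 are single clones is not stated in the labels either, and neither is the presence of feeder cells. With 1 library for each day and line, p-values measure the spread between the G6 and H8 libraries of a day, day 8 included. Pairs of values below are those of G6 and then H8, and levels are TPM (transcript abundance scaled for gene length and library).

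Naive embryonic stem cells resemble the epiblast before implantation. LIF, through STAT3, and the transcription factors Esrrb, Nanog, Klf4, Tbx3, Tfcp2l1 and Zfp42 mark that state, while Pou5f1 (Oct4) and Sox2 are shared with later pluripotent stages. In an embryoid body these cells leave the naive state and take on a formative program with Fgf5, Otx2 and Dnmt3b. WNT and Nodal signals then bring on primitive streak genes such as T (Brachyury), Eomes and Mixl1, and germ layer genes follow. Hnrnpll encodes an RNA-binding protein known as a regulator of alternative splicing in lymphocytes.

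Hnrnpll mRNA (chr17:80029487-80062334, mm10, minus strand) was present in every knockout library. It stood at 61.2 and 38.6 TPM in day 4 knockout bodies, against 54.9 and 24.5 TPM in day 0 knockout cells. Wild type had 101 TPM at day 4 and 77.1 TPM at day 0, so each knockout library was below the wild-type library of its day. A total over the gene does not show whether a deleted part is missing, since the allele is not stated. Between knockout days Hnrnpll did not pass the test (log2 fold change 0.36 ± 0.38, SE, adjusted p = 0.551). Its paralog Hnrnpl fell, with 355 and 359 TPM in day 4 bodies and 585 and 512 TPM in day 0 cells (log2 fold change −0.68 ± 0.13, adjusted p = 0.0242).

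The day 0 knockout libraries stood apart from the others before any contrast was drawn. They held 54202944 and 61611725 counts, against 126428498 and 137703080 in the day 4 knockout libraries, 122070338 in wild type day 4 and 113023429 in wild type day 0. Counts of up to 40 fell on multiples of 4 in 43.5% and 42.6% of cases at knockout day 0, and in 30.5% to 33.2% in the other libraries of the series. Were all counts up to 40 equally common, the share would be 25%. The median processed pseudogene stood at 0.1998 and 0.2196 CPM (counts scaled to library size) at knockout day 0 and at 0.430 to 0.610 CPM elsewhere. In these libraries such differences in library make-up and the day cannot be told apart. Pou5f1, the defining marker of the labelled cell type, was at 1953 and 1761 TPM in the day 0 knockout cells.

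Over the knockout course, 3650 genes passed the test at an adjusted p of 0.05 (edgeR quasi-likelihood). Of the 24794 tested, 2370 (9.56%) were higher and 1280 (5.16%) lower at day 4 than at day 0. Counts in the gene lists below are to be read against these shares. All 3650 had the same sign in G6 and in H8, but they were called on these same libraries, so this is no separate support. Leaving out the day 4 library of G6 left 759 calls, and leaving out that of H8 left 675. The share of calls that were higher was then 81.0% and 81.2%, against 64.9% with all libraries. The calls of 582 genes held with each of the 9 libraries left out in turn. Pseudogenes made up 34.05% of the higher genes but 11.4% of the genes tested: 807 of 2828 pseudogenes rose and 27 fell. Among the 17238 protein-coding genes of the same fit, 1372 (7.96%) were higher and 1092 (6.33%) lower.

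The wild-type step, with 1 library per day, was not tested on its own, but it went the same way for most of these genes. Of the 2370 genes higher in the knockout course, 1912 (80.7%) were also higher in wild type day 4 than in wild type day 0, where 48.7% of all tested genes were. Among the 1280 lower genes, 1076 (84.1%) were lower in wild type day 4 too, against 49.7% of all genes. The median log2 change of the 2370 higher genes was 2.47 in the knockout lines and 0.62 in wild type. For the 1280 lower genes it was −1.62 in the knockout lines and −0.97 in wild type. The genes were called on their knockout values, so these medians describe them and do not compare the sizes of the steps.

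**Figure D1:**
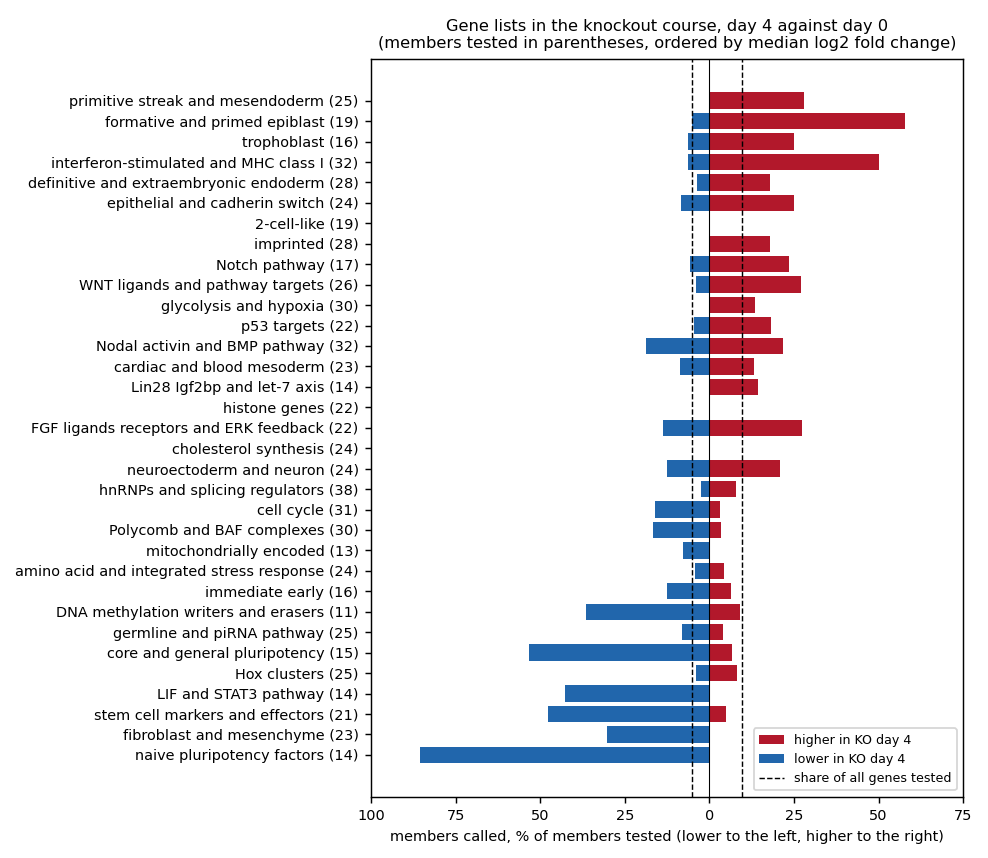
Share of the members of each gene list that rose (red, right) or fell (blue, left) in knockout day 4 bodies against knockout day 0 cells, in percent of the members tested. Dashed lines mark the shares of all tested genes, 9.56% higher and 5.16% lower, and lists run from the highest median log2 fold change at the top to the lowest at the bottom. Naive pluripotency factors have the longest bar to the left (12 of 14), and formative and interferon lists the longest to the right (11 of 19 and 16 of 32).

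Naive pluripotency factors fell in both knockout lines. Of the 14 tested, 12 were lower at day 4 and none was higher, with a median log2 change of −2.18 (0.06 over all genes tested, 0.00 over all genes in wild type). In wild type the same list had a median of −2.23. Klf4, a Krüppel-like factor that responds to LIF (chr4:55527143-55532466, minus strand), was at 19.2 and 18.9 TPM in day 4 bodies, against 289 and 700 TPM in day 0 cells. It fell in the 2 lines to nearly the same level, by 3.90 on the log2 scale in G6 and by 5.24 in H8 (joint log2 fold change −4.73 ± 0.51, adjusted p = 0.00466). Zfp42, known as Rex1 and a standard naive reporter, was at 126 and 123 TPM at day 4, against 717 and 825 TPM at day 0 (−2.64 ± 0.15, adjusted p = 0.00138). The orphan nuclear receptor Esrrb was at 71.0 and 71.2 TPM, against 286 and 348 TPM (−2.29 ± 0.13, adjusted p = 0.00138). For these 3 genes the lines agreed at day 4 more closely than at day 0. The genes were called on these same values, so the gap between the days is no further support.

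Prdm14, a repressor of the later epiblast program, was at 3.04 and 2.04 TPM at day 4, against 30.0 and 13.4 TPM at day 0 (−3.09, adjusted p = 0.00849). The T-box factor Tbx3 had 14.2 and 15.0 TPM at day 4, against 71.9 and 130 TPM at day 0 (−2.93, adjusted p = 0.00671). Tfcp2l1, a target of STAT3, had 22.4 and 21.1 TPM, against 93.8 and 151 TPM (−2.52, adjusted p = 0.00444). The homeobox factor Nanog kept more of its level: 144 and 214 TPM at day 4, against 582.5 and 606 TPM at day 0 (−1.74, adjusted p = 0.00943). In wild type Nanog stood at 216 TPM at day 4 and 272 TPM at day 0, and the test of the difference between the steps gave an adjusted p of 0.165. Klf2 fell by 1.43 (adjusted p = 0.0458, 0.0636 with the line as a block), and Klf5 changed by −1.30 with an adjusted p of 0.0706 (0.0187 with the block). The remaining falls of the list were those of Nr0b1, Nr5a2, Tcl1 and Mybl2. The count of lower members was 6 without G6 at day 4 and 5 without H8 at day 4. Esrrb, Nanog, Nr5a2, Tfcp2l1 and Zfp42 were called with every library left out in turn.

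**Figure D2:**
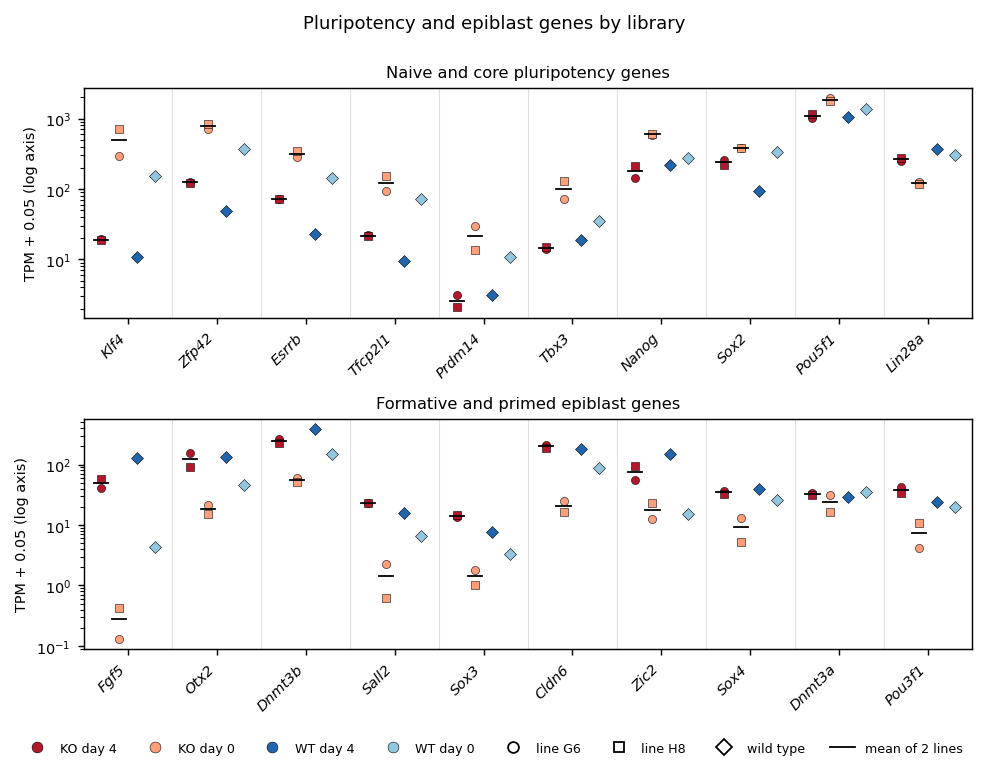
TPM of naive and core pluripotency genes (upper panel) and of formative and primed epiblast genes (lower panel) in each library, on a log axis after adding 0.05, with knockout day 4, knockout day 0, wild type day 4 and wild type day 0 from left to right for each gene. Circles are G6, squares H8, diamonds wild type, and bars the mean of the 2 lines. Klf4, Zfp42 and Esrrb sit lower at day 4 in both lines and in wild type, Pou5f1 is at 1025 and 1161 TPM at knockout day 4, and Fgf5 is 41.1 and 57.3 TPM at knockout day 4 against values under 1 at knockout day 0.

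The general pluripotency factors were lower by less. Of 15 tested, 8 fell and 1 rose, with a median log2 change of −0.67. Pou5f1 (chr17:35506018-35510772, plus strand) was at 1025 and 1161 TPM at day 4, against 1953 and 1761 TPM at day 0 (−0.77 ± 0.14, adjusted p = 0.0188). Sox2, its partner, was at 255 and 221 TPM, against 380 and 376 TPM (−0.67 ± 0.14, adjusted p = 0.0321). Fgf4, the FGF ligand that stem cells make themselves, was at 70.6 and 45.2 TPM, against 152 and 166 TPM (−1.46, adjusted p = 0.00978). Foxd3 fell by 1.80, Gdf3 by 1.25 and Dppa2 by 0.89. The member that rose was Lin28a, an RNA-binding protein that blocks let-7 maturation, with 252 and 273 TPM at day 4 and 124 and 116 TPM at day 0 (1.15 ± 0.13, adjusted p = 0.00542). Hmga1, a chromatin protein that is a let-7 target, rose with it by 1.01 (adjusted p = 0.0161). These smaller changes rested on both day 4 libraries: 1 lower call was left without G6 and 0 without H8.

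Markers and effectors of stem cells, a separate list, fell in 10 of 21 members and rose in 1 (Slc27a2), with a median of −1.46. The junctional adhesion molecule Jam2 was at 26.1 and 19.8 TPM at day 4, against 130 and 185 TPM at day 0 (−2.71, adjusted p = 0.00194). Pecam1 fell by 2.20, Fbxo15 by 2.03 and Morc1 by 2.05. The median of this list was lower in wild type, at −3.11, and no member passed the test of the difference between the steps. Leaving out G6 or H8 at day 4 left 4 lower calls. Dppa3, a marker of germ cells and of the most naive cells, was low throughout: 2.10 and 5.33 TPM at day 4 and 3.03 and 1.12 TPM at day 0, with lines moving in opposite directions (adjusted p = 0.409).

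The LIF pathway fell at several levels. Of 14 members tested 6 were lower and none higher, with a median of −1.05. Lifr, the ligand-binding receptor chain, was at 9.08 and 7.65 TPM at day 4, against 32.8 and 30.1 TPM at day 0 (−1.92 ± 0.14, adjusted p = 0.00158). Stat3, the transcription factor downstream of it, was at 42.6 and 48.4 TPM, against 87.7 and 136 TPM (−1.21, adjusted p = 0.0357). Its feedback inhibitor Socs3 was at 14.6 and 24.4 TPM, against 155 and 111 TPM (−2.77, adjusted p = 0.0116). Bcl3, an IκB family protein induced by LIF, was at 6.13 and 6.39 TPM, against 41.2 and 53.2 TPM (−2.94, adjusted p = 0.00258). The receptor chain Il6st fell by 0.89. In wild type Lifr stood at 8.91 TPM at day 4 and 17.0 TPM at day 0, and Socs3 at 19.5 TPM at day 4 and 45.6 TPM at day 0. The lower count was 3 without G6 at day 4 and 4 without H8. Bcl3, Lifr and Tfcp2l1, which is on this list as well, held with every library left out in turn.

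Among 16 immediate early genes, which respond to stimuli within minutes, 2 fell and 1 rose. The AP-1 subunit Fos was at 95.8 and 69.2 TPM at day 4, against 293 and 855 TPM at day 0 (−3.13, adjusted p = 0.0182), and Fosb was at 7.09 and 5.06 TPM, against 94.6 and 237 TPM (−4.74, adjusted p = 0.0059). The lines differed by more than 2-fold at day 0 for both. Wild type had more Fos at day 4 (294 TPM) than at day 0 (110 TPM), but the test of the difference between the steps missed the threshold (adjusted p = 0.104 for Fos and 0.0754 for Fosb). Ier3, a survival-related early gene, rose with 123 and 96.3 TPM at day 4 and 37.5 and 28.5 TPM at day 0 (1.73, adjusted p = 0.00675). Leaving out H8 at day 4 left no lower call, and leaving out G6 left 1. The list's median was 0.57 in G6 and −0.75 in H8, and it gave 7 lower calls without G6 at day 0 and 3 higher ones without H8 at day 0.

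The formative program rose. Of 19 members of the formative and primed epiblast list, 11 were higher at day 4 and 1 lower, with a median log2 change of 2.04 in the knockout lines and 1.34 in wild type. Fgf5, the ligand that defines the post-implantation epiblast (chr5:98254184-98277030, plus strand), was at 41.1 and 57.3 TPM at day 4, against 0.0826 and 0.370 TPM at day 0. Its log2 fold change was 7.55 ± 0.63 (adjusted p = 0.00234). The counts behind it were 6448 and 10014 at day 4 and 6 and 31 at day 0. Otx2, the homeobox factor that directs the formative transition, was at 153 and 90.8 TPM, against 21.2 and 15.4 TPM (2.76, adjusted p = 0.0139). The zinc finger gene Sall2 was at 23.4 and 22.8 TPM, against 2.20 and 0.568 TPM (4.12 ± 0.58, adjusted p = 0.00944).

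Cldn6, a claudin of early epithelia, was at 213 and 188 TPM at day 4, against 24.8 and 16.6 TPM at day 0 (3.28 ± 0.23, adjusted p = 0.00148). Sox3 was at 13.3 and 14.6 TPM, against 1.77 and 0.986 TPM (3.35, adjusted p = 0.00551), and the carbonic anhydrase gene Car14 at 12.01 and 11.02 TPM, against 1.47 and 1.80 TPM (3.15, adjusted p = 0.00352). For each of these genes the lines differed little at day 4. That the day 4 values lay above both day 0 values is favoured by calling the genes on them. Pou3f1 (Oct6), another formative factor, was at 42.1 and 34.1 TPM at day 4 and 4.07 and 10.8 TPM at day 0, but did not pass the test (2.33 ± 0.70, adjusted p = 0.0753). The member that fell was Etv4, an ETS factor downstream of FGF signals, with 23.7 and 45.9 TPM at day 4 and 183 TPM in each line at day 0 (−2.05, adjusted p = 0.0275). With the line as a block the call of Rspo1 was lost (adjusted p = 0.0519). The higher count was 5 without G6 at day 4 and 6 without H8, and Car14, Cldn6, Dnmt3b, Fgf5 and Sox3 held with every library left out.

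The promoters of the genes that changed most are shown because these genes mark the exit from the naive state. RefSeq promoters (GRCm38.p6) were matched for 10 of the 12 naive factors that fell, all but Prdm14 and Tbx3, and for 8 of the 11 formative genes that rose, all but Sox3, Fgf15 and Zic2. The 3 of each with the largest changes are printed 5′ to 3′ on the gene's strand, from 250 bases before the start to 50 after it. Capitals mark matches to any of 4 motifs, searched on both strands: the octamer that POU factors bind, ATTTGCAT, and an Esrrb site, TCAAGGTCA. The basal promoter element with the letters TATAAA was also searched. The E-box, a site of basic helix-loop-helix factors, was read as CACGTG. The windows are chr4:55532426-55532725 minus for Klf4, chr8:43306960-43307259 minus for Zfp42 and chr1:118627695-118627994 plus for Tfcp2l1. Those of the formative genes are chr5:98253934-98254233 plus for Fgf5, chr14:52328621-52328920 minus for Sall2 and chr17:23679115-23679414 plus for Cldn6. RefSeq gives 2 promoters for Sall2, and the printed one, the nearest to the GENCODE start, lies 92 bases from it.
Klf4: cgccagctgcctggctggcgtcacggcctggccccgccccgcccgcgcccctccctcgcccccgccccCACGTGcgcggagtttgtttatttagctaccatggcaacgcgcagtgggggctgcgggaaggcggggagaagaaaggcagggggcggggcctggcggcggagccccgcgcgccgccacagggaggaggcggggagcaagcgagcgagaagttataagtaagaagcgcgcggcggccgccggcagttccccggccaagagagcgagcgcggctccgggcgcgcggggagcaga
Zfp42: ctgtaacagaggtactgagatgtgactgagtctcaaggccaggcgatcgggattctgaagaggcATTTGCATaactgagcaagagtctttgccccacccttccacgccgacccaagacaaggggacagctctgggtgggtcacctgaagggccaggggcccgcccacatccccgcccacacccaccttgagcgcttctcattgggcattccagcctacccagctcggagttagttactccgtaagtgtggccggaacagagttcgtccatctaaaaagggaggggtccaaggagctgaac
Tfcp2l1: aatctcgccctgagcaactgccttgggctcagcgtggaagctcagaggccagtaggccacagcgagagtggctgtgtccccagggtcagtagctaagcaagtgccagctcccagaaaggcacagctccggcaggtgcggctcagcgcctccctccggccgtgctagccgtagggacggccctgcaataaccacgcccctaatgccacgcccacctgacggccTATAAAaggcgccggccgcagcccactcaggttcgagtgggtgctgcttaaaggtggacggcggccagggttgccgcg
Fgf5: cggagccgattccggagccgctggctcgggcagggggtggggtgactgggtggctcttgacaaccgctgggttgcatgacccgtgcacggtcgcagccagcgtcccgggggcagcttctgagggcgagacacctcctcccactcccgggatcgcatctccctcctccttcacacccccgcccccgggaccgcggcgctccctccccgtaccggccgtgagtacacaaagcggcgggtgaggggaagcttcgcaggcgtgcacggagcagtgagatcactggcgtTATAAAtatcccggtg
Sall2: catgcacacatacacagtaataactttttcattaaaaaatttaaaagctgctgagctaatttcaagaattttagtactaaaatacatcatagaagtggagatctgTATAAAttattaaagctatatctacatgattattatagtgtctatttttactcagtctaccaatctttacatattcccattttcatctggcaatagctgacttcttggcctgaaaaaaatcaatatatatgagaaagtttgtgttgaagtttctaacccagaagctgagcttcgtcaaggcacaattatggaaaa
Cldn6: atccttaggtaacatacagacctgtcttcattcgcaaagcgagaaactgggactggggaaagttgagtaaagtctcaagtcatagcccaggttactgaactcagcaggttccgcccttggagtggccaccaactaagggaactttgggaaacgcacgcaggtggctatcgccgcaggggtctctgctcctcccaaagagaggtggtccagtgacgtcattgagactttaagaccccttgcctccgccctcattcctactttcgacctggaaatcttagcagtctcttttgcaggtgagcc

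The Zfp42 window held an octamer, ATTTGCAT, whose first base lay 186 bases before the start. Over all 32851 RefSeq promoters of this length 1.74% held one on either strand. Klf4 held an E-box 182 bases before the start (7.15% of all promoters), and Tfcp2l1 the letters TATAAA 28 bases before it (13.6% of all promoters). In Fgf5 the letters TATAAA began 34 bases after the start, and in Sall2 145 bases before it. The Cldn6 window held none of the 4, and no printed window held the Esrrb site (0.423% of all promoters). GC content was 74.3% for Klf4, 57.7% for Zfp42, 65.3% for Tfcp2l1, 68.3% for Fgf5, 30.3% for Sall2 and 52.3% for Cldn6.

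DNA methylation enzymes moved both ways. Dnmt3b, a de novo methyltransferase, was at 269 and 227 TPM in day 4 bodies, against 60.6 and 51.1 TPM in day 0 cells (2.15 ± 0.24, adjusted p = 0.00504). Its relative Dnmt3a was at 33.5 and 31.5 TPM, against 31.7 and 16.1 TPM, and did not pass the test (0.97, adjusted p = 0.0899). The oxidising enzymes fell: Tet2 was at 20.4 and 13.6 TPM, against 78.4 and 97.5 TPM (−2.39, adjusted p = 0.00562), and Tet1 at 25.03 and 37.4 TPM, against 79.0 and 130 TPM (−1.90, adjusted p = 0.03). Dnmt3l, the catalytically inactive cofactor, was at 281 and 250 TPM in day 4 bodies and 390 and 506 TPM in day 0 cells (−0.79, adjusted p = 0.0446, 0.0543 with the line as a block). Wild type had 51.2 TPM of Dnmt3l at day 4 and 574 TPM at day 0, and the knockout step exceeded the wild-type step by 2.58 on the log2 scale (adjusted p = 0.0495). That call was lost with the line as a block (0.0641) and without any one knockout library of day 4 or day 8 (0.133 to 0.227). In all, 4 of 11 members fell and 1 rose, and leaving out the day 4 library of G6 or of H8 left 1 lower call, that of Tet2.

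In the FGF pathway 6 of 22 members rose and 3 fell, where 9.56% of all genes rose and 5.16% fell. Among the ligands, Fgf5 rose as above and Fgf4 fell. Fgf8, a ligand of the primitive streak, was at 12.3 and 41.6 TPM in day 4 bodies and 0.598 and 0.179 TPM in day 0 cells (5.93 ± 0.98, adjusted p = 0.0159), with 155 TPM in wild type day 4 and 0.710 TPM in wild type day 0. The receptor gene Fgfr2 was at 8.14 and 7.87 TPM at day 4, against 3.08 and 2.01 TPM at day 0. Its fold change on counts was larger than that ratio of TPM (log2 2.40 ± 0.22, adjusted p = 0.00292). Of the phosphatases that feed back on ERK, Dusp4 rose (60.0 and 50.5 TPM against 8.44 and 15.5 TPM, adjusted p = 0.0109), and Dusp6 did not pass the test (111 and 130 TPM against 44.9 and 78.5 TPM, adjusted p = 0.0835). The higher count was 3 without G6 at day 4 and 2 without H8.

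Primitive streak genes rose in the knockout lines, several of them from near absence. Of 25 tested, 7 were higher at day 4 and none lower, with a median log2 change of 2.54, or 2.34 with genes at 0 counts set to their lower bound. The wild-type median was 4.64. T (chr17:8434423-8442496, plus strand) was at 30.7 and 78.5 TPM in day 4 bodies and 0.392 and 0 TPM in day 0 cells (7.91 ± 1.08, adjusted p = 0.0089), with 24 and 0 counts at day 0. The call of T was lost under limma-voom, an alternative fit. Wild type had 853 TPM of T at day 4 and 2.23 TPM at day 0. Eomes was at 20.1 and 27.6 TPM in day 4 knockout bodies, against 7.75 and 3.05 TPM at day 0 (2.34, adjusted p = 0.0181), and wild type had 253 TPM at day 4 and 4.26 TPM at day 0. The knockout step of Eomes differed from the wild-type step by −3.68 on the log2 scale, which missed the threshold (adjusted p = 0.0897).

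Mixl1 differed widely between the lines. It was at 0.934 and 9.56 TPM in day 4 bodies, against 0.299 and 0.0523 TPM in day 0 cells, and did not pass the test (4.97 ± 1.35, adjusted p = 0.0591). Wild type day 4 had 256 TPM and wild type day 0 had 0.497 TPM. H8 had more T, Fgf8 and Mixl1 than G6 at day 4. Foxa2, of the anterior streak and endoderm, rose to 3.66 and 4.87 TPM, against 0.582 and 0.290 TPM (3.26, adjusted p = 0.0343). The calls of Foxa2 and Fgf8 were lost under limma-voom. That fit called 3 streak genes higher, and the fit with the line as a block called 11. Cer1, a secreted Nodal and WNT antagonist, had no counts at knockout day 0 and 0.0598 and 0.965 TPM at day 4, at least 18.99-fold higher against a floor of 3 counts over the group, yet it did not pass the test (adjusted p = 0.306). Leaving out G6 at day 4 left 5 streak genes called, and leaving out H8 left 3. Lefty2, T and Wnt3 held with every library left out.

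**Figure D3:**
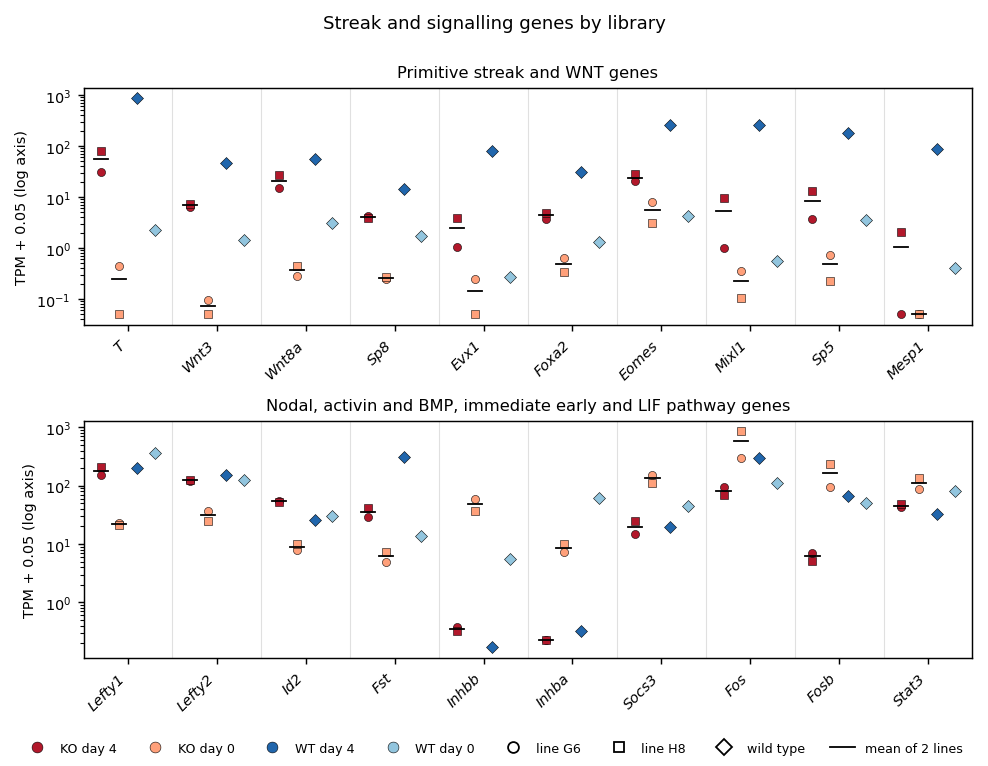
TPM of primitive streak and WNT genes (upper panel) and of Nodal, activin and BMP, immediate early and LIF pathway genes (lower panel) in each library, on a log axis after adding 0.05, with knockout day 4, knockout day 0, wild type day 4 and wild type day 0 from left to right for each gene. Circles are G6, squares H8, diamonds wild type, and bars the mean of the 2 lines. T is at 30.7 and 78.5 TPM in knockout day 4 bodies and at 853 TPM in wild type day 4 while Lefty2 is at 120 and 126 TPM in knockout day 4 and at 154 TPM in wild type day 4.

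Of 26 members of the WNT list 7 rose and 1, the ligand gene Wnt6, fell, with a median of 0.49 in the knockout lines and 2.10 in wild type. Wnt3, needed for streak formation in the mouse (chr11:103774150-103817957, plus strand), was at 6.41 and 7.17 TPM at day 4 and 0.0440 and 0 TPM at day 0 (8.29 ± 1.11, adjusted p = 0.0084). The call of Wnt3 was lost under limma-voom. Wnt8a, a streak ligand, was at 15.1 and 26.4 TPM, against 0.237 and 0.396 TPM (6.02 ± 0.48, adjusted p = 0.00201). Sp8, a WNT-responsive transcription factor, was at 4.1 and 3.88 TPM, against 0.1997 and 0.213 TPM (4.26 ± 0.32, adjusted p = 0.00178). Axin2, the feedback inhibitor read as a measure of pathway activity, was at 9.70 and 11.7 TPM, against 2.28 and 3.80 TPM (1.94, adjusted p = 0.0309), and wild type had 51.0 TPM at day 4 and 4.42 TPM at day 0. Wnt4 rose by 3.42 and Wnt5b by 2.46. Sp8, Tcf7, Wnt3 and Wnt8a held with every library left out, and the higher count was 5 without G6 at day 4 and 4 without H8.

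In the Nodal, activin and BMP list, 7 of 32 members rose and 6 fell. Activin subunits fell most: Inhbb (chr1:119415465-119422248, minus strand) was at 0.322 and 0.274 TPM in day 4 bodies and 60.1 and 36.6 TPM in day 0 cells (−7.33 ± 0.33, adjusted p = 0.00105), and Inhba at 0.178 and 0.173 TPM, against 7.36 and 9.78 TPM (−5.61 ± 0.62, adjusted p = 0.00477). In wild type Inhbb was at 0.121 TPM at day 4 and 5.39 TPM at day 0. Nodal itself, the ligand, was at 43.2 and 98.4 TPM, against 22.1 and 68.9 TPM, and did not pass the test (0.62, adjusted p = 0.555). Its targets and inhibitors Lefty1 and Lefty2 rose: Lefty1 was at 153 and 207 TPM at day 4, against 23.0 and 21.5 TPM at day 0 (2.98 ± 0.28, adjusted p = 0.00332), and Lefty2 at 120 and 126 TPM, against 37.3 and 24.5 TPM (2.06, adjusted p = 0.00242). In wild type Lefty1 stood at 205 TPM at day 4 and 359 TPM at day 0. The knockout step of Lefty1 exceeded the wild-type step by 3.80 on the log2 scale (adjusted p = 0.0488), a call lost with the line as a block (adjusted p = 0.0641) and without any one of the 6 knockout libraries (0.0617 to 0.2204).

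The activin antagonist Fst was at 29.1 and 42.2 TPM at day 4, against 4.81 and 7.34 TPM at day 0 (2.54, adjusted p = 0.0247), and wild type had 308 TPM at day 4. Of the BMP-responsive Id genes, Id2 was at 55.3 and 52.7 TPM, against 7.93 and 10.01 TPM (2.58 ± 0.20, adjusted p = 0.00197), and Id1 and Id3 rose by 1.95 and 1.69. Wild type had 25.8 TPM of Id2 at day 4 and 29.9 TPM at day 0, and the step difference of 2.71 had an adjusted p of 0.0488. It did not pass with the line as a block (0.0616) or without any one knockout library of day 4 or day 8 (0.133 to 0.227). Gdf3, Bmp4, Smad7 and Acvr1b also fell. Leaving out the day 4 library of G6 or of H8 left 5 members called higher and 2 lower.

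In the Notch list 4 of 17 members rose and 1 fell, where 9.56% of all genes rose and 5.16% fell. The receptor Notch3 was at 45.4 and 63.4 TPM at day 4, against 21.7 and 14.6 TPM at day 0 (1.59, adjusted p = 0.0177), the ligand Jag2 at 38.5 and 28.1 TPM, against 11.1 and 11.5 TPM (1.55, adjusted p = 0.00727), and Dll3 at 4.73 and 5.82 TPM, against 0.877 and 1.299 TPM (2.23, adjusted p = 0.0122). Notch2 rose by 0.96, and Notch4, a receptor of endothelium, fell by 1.82. All 5 went the same way in wild type. Leaving out either line at day 4 left 1 higher call.

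Lineage genes beyond the streak moved in small numbers and from low levels. In the endoderm list 5 of 28 rose and 1 fell, where 9.56% of all genes rose and 5.16% fell. Lrp2, an endocytic receptor of visceral endoderm, was at 58.1 and 35.5 TPM at day 4, against 6.44 and 6.86 TPM at day 0 (2.94, adjusted p = 0.00708). Ttr, a visceral endoderm transport protein, had no counts at day 0 and was at 1.65 and 1.01 TPM at day 4, at least 33.4-fold higher (adjusted p = 0.00923). The call of Ttr was lost under limma-voom and on log2(TPM + 1). Apob rose by 3.56 and Cited1 by 2.83. Sox17, the definitive endoderm factor, was at 8.85 and 0.462 TPM at day 4 and 1.27 and 0.301 TPM at day 0, so that a rise was seen mainly in G6 and did not pass the test (adjusted p = 0.245). Gata6 was at 6.46 and 1.13 TPM, against 3.69 and 0.901 TPM (adjusted p = 0.611). Thbd, a surface receptor of parietal endoderm and endothelium, fell to 0.138 and 0.0655 TPM, against 3.82 and 9.41 TPM (−6.05, adjusted p = 0.00736). The list gave 2 higher calls without G6 at day 4 and 3 without H8. Lrp2 and Ttr held with every library left out in turn.

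Of 24 neural genes tested 5 rose and 3 fell, with a median of −0.02. Nes, an intermediate filament of neural progenitors, was at 44.7 and 59.4 TPM at day 4, against 9.44 and 6.44 TPM at day 0 (2.75, adjusted p = 0.0041), and Sox11 at 20.2 and 20.5 TPM, against 3.33 and 2.05 TPM (2.92, adjusted p = 0.00241). Dcx and Pax3 had no counts at day 0 and reached at most 0.380 and 0.381 TPM at day 4 (at least 43.7-fold and 21.3-fold higher). The neural plate factor Sox1 fell to 0.207 and 0.422 TPM, against 3.43 and 3.68 TPM (−3.49, adjusted p = 0.0159), and Sox21 to 0.341 and 0.445 TPM, against 2.81 and 6.30 TPM (−3.54, adjusted p = 0.0192). Thus members of the list moved both ways. There were 3 higher and 0 lower calls without G6 at day 4, and 2 and 0 without H8 at day 4.

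In the cardiac and blood mesoderm list 3 of 23 rose and 2 fell, not far from the shares of all genes, and the lower count was 0 without either line at day 4. Etv2, the ETS factor that specifies blood and endothelium, was at 13.3 and 19.6 TPM at day 4, against 0.459 and 0.112 TPM at day 0 (5.87 ± 0.64, adjusted p = 0.0046). Cardiac actin, Actc1, had no counts at day 0 and was at 3.26 and 2.52 TPM at day 4, at least 87.5-fold higher (adjusted p = 0.00194). Wild type expressed Actc1 on both days, at 8.81 TPM at day 4 and 4.38 TPM at day 0. Etv2 and Actc1 held with every library left out. Myh6, a cardiac myosin heavy chain, rose by 2.40 (adjusted p = 0.0493, 0.0593 with the line as a block). Myl4, an atrial myosin light chain, fell to 1.05 and 1.70 TPM, against 14.7 and 8.05 TPM (−3.11, adjusted p = 0.00805).

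Of 25 Hox genes 2 rose and 1 fell, near the shares of all genes tested. Hoxb1 and Hoxd4 had no counts at day 0, and stood at 0.674 and 0.384 TPM (Hoxb1, at least 22.1-fold higher) and 0.673 and 0.883 TPM (Hoxd4, at least 25.03-fold higher) at day 4. Hoxb1 was at 6.91 TPM in wild type day 4 and 0.330 TPM in wild type day 0. Hoxc8 fell to 0.0488 and 0 TPM, against 0.838 and 0.623 TPM (adjusted p = 0.047, 0.0611 with the line as a block). None of the 3 calls held when the day 4 library of G6 or of H8 was left out. Where counts come in steps of 4, the lower bounds given for genes at 0 counts are up to 4 times too high.

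Of 16 trophoblast markers 4 rose and 1 fell. Of those that rose, Krt18 and Krt19 also mark simple epithelia, and Eomes marks the streak. The keratin gene Krt19 was at 119 and 95.0 TPM at day 4, against 17.3 and 17.6 TPM at day 0 (2.58 ± 0.19, adjusted p = 0.00178). Krt18, also a keratin gene, was at 149 and 174 TPM, against 16.2 and 38.5 TPM (2.54, adjusted p = 0.0232). Eomes rose as above. Gcm1, a placental factor, rose to 0.846 and 1.12 TPM (adjusted p = 0.0413, 0.059 with the line as a block). Tead4 fell, with 7.503 and 7.12 TPM at day 4 and 27.1 and 35.4 TPM at day 0 (−2.09, adjusted p = 0.00356). Among 25 germline genes Sycp3 rose (1.63) and Piwil2 and Mov10l1, of the piRNA pathway, fell by 1.86 and 1.24. In this fit these shares were near or below those of all genes tested. With the line as a block 7 germline genes fell and 2 rose, where 1355 of all 24794 genes fell and 2434 rose. Without either line at day 4 the trophoblast list gave 1 higher and 1 lower call, and the germline list 0 and 0.

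No gene of the 2-cell-like list, the program of a rare state that resembles the early embryo, passed the test in the course (0 of 19, with 18 of 19 positive and a median of 0.71). The summed level of the 19 genes was 240 and 240.2 TPM in knockout day 4, 221 and 279 TPM in knockout day 0, 249 TPM in wild type day 4 and 960 TPM in wild type day 0. The wild-type median was −2.86. Of these 6 libraries the wild-type day 0 library was high, and no member passed the test of the difference between the steps.

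Of 23 members of the fibroblast list 7 were lower at day 4 and none higher, with a median of −1.53 in the knockout lines and −1.76 in wild type. Col1a1 was at 1.02 and 1.40 TPM in day 4 bodies and 44.2 and 27.6 TPM in day 0 cells (−5.13, adjusted p = 0.0271). Col1a2 was at 0.758 and 0.753 TPM, against 51.0 and 24.1 TPM (−5.97, adjusted p = 0.00698). S100a4, also called fibroblast-specific protein, was at 0.517 and 1.01 TPM, against 52.7 and 42.5 TPM (−6.06 ± 0.51, adjusted p = 0.00239). Wild type had 1.28 TPM of Col1a1 at day 4 and 54.5 TPM at day 0. The summed level of the list was 915 and 905 TPM in knockout day 4, 1419 and 1770 TPM in knockout day 0, 1774 TPM in wild type day 4 and 2394 TPM in wild type day 0. Of the 23 genes, 17 in each day 4 knockout library reached 1 TPM, against 22 and 21 at knockout day 0, 19 in wild type day 4 and 22 in wild type day 0. Lum, a proteoglycan of fibroblasts, had 0 counts in all 4 knockout libraries.

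The part that other cells carrying these markers had in the fall of matrix genes was not tested, and in bulk RNA fewer cells of a type and less RNA per cell cannot be told apart. Of the 12 protein-coding genes that fell most at a mean of at least 5 CPM, Col3a1, Col1a2, Col6a3, Col8a1, Tnc, Bgn and Lox encode matrix proteins or enzymes, a grouping made after their values were seen. Bgn, a small proteoglycan, was at 1.56 and 1.10 TPM at day 4, against 70.7 and 47.4 TPM at day 0 (−5.41 ± 0.33, adjusted p = 0.00148). Lox, a collagen cross-linking enzyme, was at 0.848 and 0.499 TPM, against 28.6 and 38.3 TPM (−5.66, adjusted p = 0.00502). S100a4, an intracellular calcium-binding protein, Igfbp7, Inhbb, Thbd and the homeobox gene Nkx6-3 completed the 12. Fn1, fibronectin, fell less, with 368 and 349 TPM at day 4 and 662 and 1032 TPM at day 0 (−1.30, adjusted p = 0.0404). Leaving out the day 4 library of G6 or of H8 left 1 lower call among the fibroblast genes, that of S100a4. The count was larger, at 11 and 12, without G6 or H8 at day 8, and 12 without all day 8 libraries.

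Of 24 members of the epithelial list 6 rose, 2 fell and 16 did not pass the test, with a median of 0.94. Cdh1, E-cadherin, was at 340 and 287 TPM at day 4, against 171 and 173 TPM at day 0 (0.88, adjusted p = 0.0241), and Epcam at 254 and 231 TPM, against 118 and 123 TPM (1.002, adjusted p = 0.0222). Cldn7 was at 56.2 and 60.5 TPM, against 9.61 and 15.6 TPM (2.28, adjusted p = 0.00894). Esrp1, a splicing regulator of epithelial isoforms, was at 52.8 and 58.6 TPM, against 6.32 and 9.69 TPM (2.77, adjusted p = 0.00506). The mesenchymal regulator Zeb1 was at 1.58 and 1.91 TPM, against 7.17 and 7.95 TPM (−1.98, adjusted p = 0.032). Cdh2, N-cadherin, was at 6.23 and 6.73 TPM at day 4 and 2.13 and 1.91 TPM at day 0 and did not pass the test (1.69, adjusted p = 0.166), with 82.0 TPM in wild type day 4 and 12.5 TPM in wild type day 0. Leaving out either line at day 4 left 2 members called higher and 0 lower.

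Interferon-stimulated and MHC class I genes rose in the knockout course. Of 32 tested, 16 were higher and 2 lower at day 4, with a median log2 change of 1.43 (1.28 with genes at 0 counts set to their bound). The wild-type median was −1.27. Gbp2, an interferon-induced GTPase (chr3:142620602-142638008, plus strand), was at 19.08 and 22.8 TPM in day 4 bodies and 0.430 and 0.187 TPM in day 0 cells (6.06 ± 0.47, adjusted p = 0.00194). Wild type had 95.1 TPM at day 4 and 62.9 TPM at day 0. Psmb8, an immunoproteasome subunit, was at 13.5 and 13.3 TPM at day 4, against 0.477 and 0.0737 TPM at day 0 (5.57, adjusted p = 0.00731). Gbp3 was at 3.77 and 3.94 TPM, against 0.0513 and 0.179 TPM (4.95, adjusted p = 0.00416), and Oasl2 at 7.53 and 6.06 TPM, against 0.730 and 0.0384 TPM (4.64, adjusted p = 0.0159). All 3 were low at knockout day 0 relative to the wild-type libraries, where Gbp3 was at 18.7 TPM at day 4 and 44.1 TPM at day 0.

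The antigen presentation arm rose as well. B2m, the invariant chain of MHC class I, was at 83.2 and 91.3 TPM at knockout day 4, against 38.2 and 38.7 TPM at knockout day 0 (1.18 ± 0.15, adjusted p = 0.00779), whereas wild type had 87.9 TPM at day 4 and 253 TPM at day 0. H2-K1 rose by 2.06, Tap1 by 2.47 and Tap2 by 3.52, and the transcription factor Irf1 by 2.54. Mx2 had no counts at knockout day 0 and was at 0.863 and 0.810 TPM at day 4 (at least 24.5-fold higher), with 6.70 TPM in wild type day 4 and 31.8 TPM in wild type day 0. Ifitm2, a membrane protein of early embryonic and germ cells as well as of the interferon response, went the other way: 123 and 131 TPM at day 4, against 869 and 803 TPM at day 0 (−2.72 ± 0.16, adjusted p = 0.00138). Ifitm3 fell by 0.93. The Gbp, Ifitm and H2 genes are families of close copies, so reads may have been split between them. Of the 16 genes that rose, 6 were also higher in wild type day 4 than in wild type day 0. Leaving out the day 4 library of G6 or of H8 left 9 members called higher, and Gbp2, Gbp3, Ifih1, Irf1, Mx2, Psmb8, Tap2 and, among those that fell, Ifitm2 held with every library left out.

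**Figure D4:**
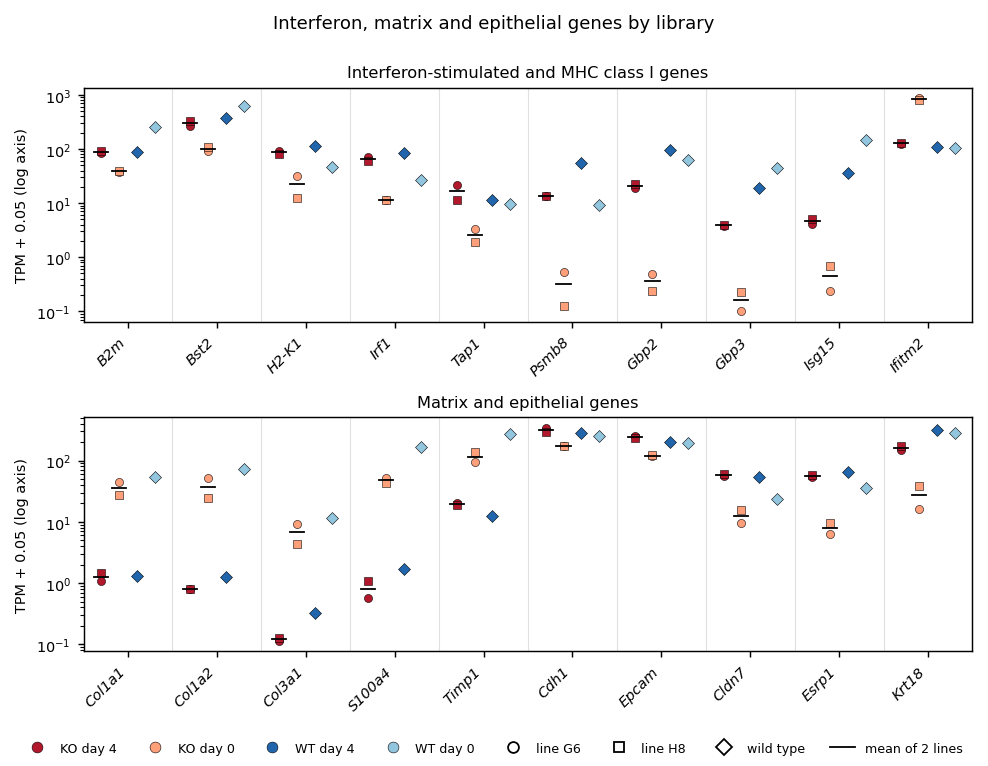
TPM of interferon and MHC class I genes (upper panel) and of matrix and epithelial genes (lower panel) in each library, on a log axis after adding 0.05, with knockout day 4, knockout day 0, wild type day 4 and wild type day 0 from left to right for each gene. Circles are G6, squares H8, diamonds wild type, and bars the mean of the 2 lines. Gbp2 is at 0.430 and 0.187 TPM at knockout day 0 and at 62.9 TPM in wild type day 0, while Col1a1 is low at day 4 in both genotypes.

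Of 28 imprinted genes 5 rose (9.56% of all genes did) and none fell, with a median of 0.64. Magel2, a maternally imprinted ubiquitin ligase regulator, was at 7.20 and 9.56 TPM at day 4, against 0.178 and 0.130 TPM at day 0 (5.77 ± 0.34, adjusted p = 0.00138), and held with every library left out. Peg3 was at 49.1 and 67.8 TPM, against 10.7 and 18.8 TPM (1.92, adjusted p = 0.0404), and wild type had 248 TPM at day 4 and 44.9 TPM at day 0. Snrpn rose by 1.20, Mirg by 1.45 and Mkrn3 by 0.90. All 5 were also higher in wild type day 4. The count of higher members was 1 without either line at day 4, and 3 in a fit of protein-coding genes alone. Snrpn and Mirg overlap the exons of other genes, so their counts are uncertain.

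Of 30 glycolysis and hypoxia genes 4 rose, near the share of all genes tested (9.56%). Adm, a hypoxia-responsive peptide hormone, rose by 2.74, the oxidoreductase Ero1l by 1.21, Pfkm by 0.95 and Gapdh by 0.69. In the cell cycle list 5 of 31 fell and 1 rose. The D-type cyclin Ccnd3 was at 17.8 and 30.4 TPM at day 4, against 214 and 130 TPM at day 0 (−3.15, adjusted p = 0.00853), while Ccnd1, at 49.7 and 44.3 TPM, against 72.2 and 17.8 TPM, moved in opposite directions in the 2 lines (adjusted p = 0.937). Ccnb1, Ccne1, Cdk2 and Mcm5 fell by 0.60 to 0.92. The inhibitor Cdkn1a, a p53 target, rose by 0.73, with 115 and 118 TPM at day 4 and 69.3 and 63.4 TPM at day 0 (adjusted p = 0.0213). Of 22 p53 targets 4 rose (9.56% of all genes did), Btg2, Trp53inp1 and Bbc3 among them, and 1, Gdf15, fell. The calls of Pfkm and Ccne1 were lost with the line as a block (adjusted p = 0.0557 and 0.0558), and 0 glycolysis genes were called without G6 at day 4, against 2 without H8. In that list 8 rose and 2 fell with the line as a block, and 7 rose without G6 at day 0. Without either line at day 4, the cell cycle list gave 1 lower call and the p53 list gave 0 in each direction.

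Chromatin and RNA-binding genes followed. Of 30 members of the Polycomb and BAF list 5 fell and 1 rose. The member that rose, Smarca1, is an ISWI remodeler gene and encodes no subunit of the Polycomb or BAF complexes. Smarcd3, a BAF subunit of heart and neurons, was at 2.26 and 2.85 TPM at day 4, against 19.2 and 10.3 TPM at day 0 (−2.26, adjusted p = 0.0131), the Polycomb cofactor Phf19 at 3.69 and 3.60 TPM, against 11.4 and 13.9 TPM (−2.00, adjusted p = 0.0102), and Eed, a core subunit of the same complex, at 255 and 191 TPM, against 356 and 416 TPM (−0.74, adjusted p = 0.0357). No member of that list was called without either line at day 4, and the lower calls were 2 without either line at day 8. Of 38 hnRNPs and splicing regulators 3 rose (Esrp1, Celf2 and Ptbp2) and 1, Hnrnpl, fell, which is near the shares of all genes tested. Celf2 was at 10.4 and 9.08 TPM, against 4.61 and 3.99 TPM (1.17, adjusted p = 0.0187). In the amino acid and stress response list 1 of 24 rose and 1 fell, no more than the shares of all genes tested. Of 13 mitochondrially encoded genes 1, mt-Nd3, fell (5.16% of all genes did). None of 24 cholesterol synthesis genes and none of 22 histone genes passed the test. For cholesterol synthesis the lines differed, with a median of −0.37 in G6 and 0.72 in H8: 9 members were called higher without G6 at day 0, and 2 lower without H8 at day 0. For histone genes 3 were called lower without H8 at day 0. Medians in the amino acid list were 0.20 in G6 and −0.60 in H8, with 8 members called lower without G6 at day 0 and 4 higher without H8 at day 0. Of the mitochondrially encoded genes 6 were called lower without G6 at day 0 and 0 without either line at day 4.

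The largest rises among protein-coding genes with a mean of at least 5 CPM were led by Fndc3c1, a fibronectin type III domain gene of the X chromosome, with 52.2 and 48.6 TPM at day 4 and 0.227 and 0.0247 TPM at day 0 (8.54 ± 0.74, adjusted p = 0.00254). Wnt3, T, Fgf5, Gadl1, Gbp2b, Trim67, Alox15, Gbp2, Wnt8a, Mcoln3 and Enpp2 completed the 12. Enpp2 (autotaxin), which makes lysophosphatidic acid, was at 36.6 and 32.2 TPM, against 0.446 and 0.514 TPM (5.99, adjusted p = 0.00242), and wild type had 16.0 TPM at day 4 and 3.37 TPM at day 0. Alox15, a lipoxygenase, was at 7.70 and 18.5 TPM, against 0.229 and 0.149 TPM (6.12, adjusted p = 0.00302), and wild type had 96.4 TPM at day 4 and 1.99 TPM at day 0.

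Whether the knockout lines moved as wild type did was tested as the difference between the 2 steps, (knockout day 4 minus knockout day 0) minus (wild type day 4 minus wild type day 0). The wild-type libraries, 1 per day, were assumed to vary like the knockout libraries. Of 24794 genes 113 (0.456%) had a higher and 12 (0.0484%) a lower step in the knockout lines. Interferon-stimulated and MHC class I genes gave 7 of the higher steps, Gbp2, Gbp3, Ifih1, Mx2, Rsad2 and B2m among them, and 1 of the lower, Ifitm2. No other list had more than 2. None of the naive, core pluripotency, LIF, formative, WNT or streak genes passed this test, which does not show that they moved alike: the median step difference was 0.34 for naive factors, 0.79 for formative genes and −1.78 for streak genes, against 0.16 over all genes.

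**Figure D5:**
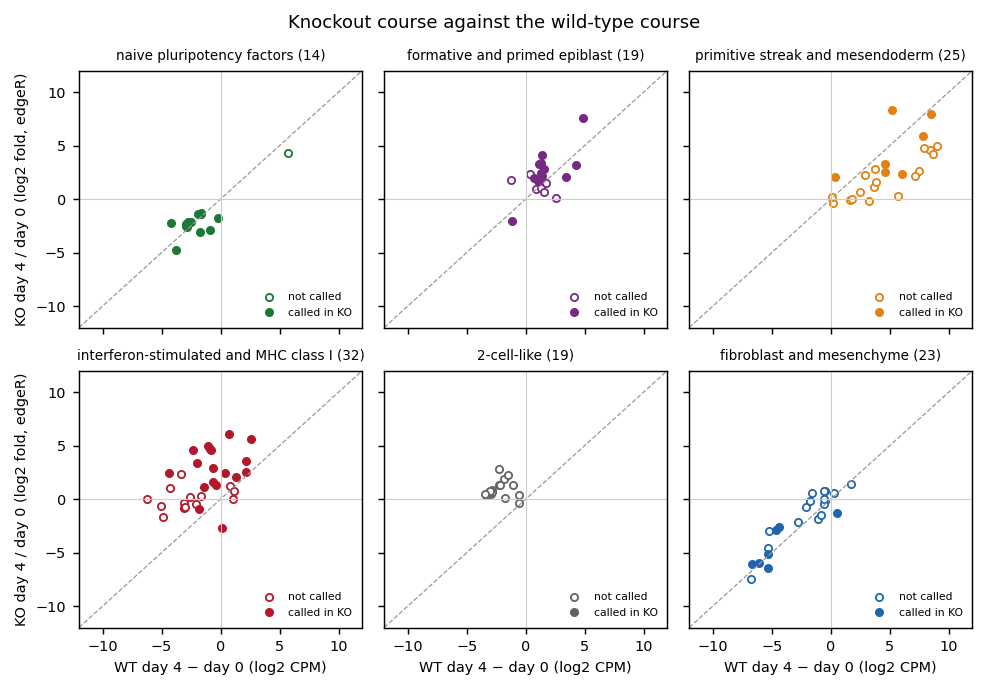
Log2 fold change of each member of 6 gene lists in the knockout course (vertical axis, edgeR, with a lower bound where a group had no counts) against the difference of log2 CPM between wild type day 4 and wild type day 0 (horizontal axis). Filled points passed the test in the knockout course, and the dashed line marks equal steps. Naive genes have medians of −2.18 in the knockout lines and −2.23 in wild type, with a median step difference of 0.34. Streak genes lie mostly below the line, and interferon genes mostly above it.

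Gbp2b, a further guanylate-binding protein gene, was at 12.8 and 15.1 TPM in knockout day 4 and 0.0976 and 0.170 TPM in knockout day 0, with 67.3 TPM in wild type day 4 and 51.2 TPM in wild type day 0 (step difference 6.20, adjusted p = 0.0376). Ddx60, an interferon-induced helicase, was at 6.38 and 3.91 TPM in knockout day 4, against 0.209 and 0.110 TPM in knockout day 0, and at 3.03 TPM in wild type day 4, against 21.2 TPM in wild type day 0 (7.04, adjusted p = 0.0428). Among the lower steps, the transcription factor gene Plagl2 was at 10.3 and 10.7 TPM in knockout day 4 and 7.14 and 6.08 TPM in knockout day 0, while wild type had 13.5 TPM at day 4 and 1.55 TPM at day 0 (−2.53, adjusted p = 0.0428). The zinc finger gene Sall3 was at 3.004 and 2.75 TPM at knockout day 4 and 3.01 and 2.49 TPM at knockout day 0, and at 19.5 TPM in wild type day 4 and 3.66 TPM in wild type day 0 (−2.43, adjusted p = 0.0495). These calls rested on few libraries. With the line as a block 12 genes were called, among them Ddx60, Gbp2b and Kctd12, while Plagl2 and Sall3 had an adjusted p of 0.0616 and 0.0636. Without G6 at day 4, 1 gene was called, which was not among the 125. Leaving out H8 at day 4, G6 at day 8 or H8 at day 8 left none (3182, 3613 and 3587 genes then had an unadjusted p under 0.05, against 4267 with all libraries).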

How the data were processed

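PolyA+ RNA was measured in 9 libraries. Per the submitters' processing notes, HISAT2 2.0.5, StringTie 1.3.3b and mm10 were used. Their roles, the annotation and whether strand was used are not given in the sources used here. The authors deposited, per library, raw whole-number counts and TPM for each gene. Each count table holds 259 entries with no gene name (0.0242% to 0.0398% of counts), which were left out. Coordinates and gene types came from GENCODE M21 (mm10), where all 49326 named identifiers were found. Of 171 named genes, 57 share exonic bases with another annotated gene, so their counts are uncertain.

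Genes were kept with at least 0.0791 CPM (10 counts at the median depth) in 2 or more libraries. Counts were normalised by TMM and fitted with edgeR 4.0.16 (two-sided quasi-likelihood F test; R 4.3.3, limma 3.58.1) as 6 group means over all 9 libraries, which left 3 residual degrees of freedom. P-values were adjusted by Benjamini-Hochberg over 24794 genes, with a threshold of 0.05. Fold changes are log2 on counts. Their SE comes from the same fit, whose spread rests on the G6 and H8 pairs of every day, day 8 included. The wild-type step is a difference of log2 CPM (prior count 2). Where a whole group had 0 counts, a fold is a lower bound against 3 counts in the group. Such bounds allow for counting error alone, as there are no molecular identifiers. Total counts of 54202944 to 184890212 per library set the precision.

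Same-line libraries come from the same line per the labels, and the line enters as a block in an alternative. The difference of H8 from G6 correlated between day 0 and day 4 (r = 0.196 over 15732 genes), and between day 0 and day 8 (0.135) and day 4 and day 8 (0.367). DESeq2 1.42.0, limma-voom, other scalings and filters, TPM on a log2 scale and leaving out each library were the other alternatives. With a library left out, the lone library of its group was assumed to vary like the others. The fit was also run on simulated counts with less spread than these libraries, which does not test it on data like these. The members and gene lists were chosen with earlier results of these data known. The genes given values are a fixed set of 47, the 12 largest rises and 12 largest falls with a mean of at least 5 CPM, the 6 largest step differences each way, and up to 5 called members of each list. Other called members complete a list's count, and their naming followed from their values. Some members of the lists, though counted, are not reported here by name.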

Additional observations from a re-analysis of the deposited data

Results flagged for a closer look

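For 20 named genes the step from day 0 to day 4 in the knockout lines differed from the wild-type step by an edgeR interaction test at an adjusted p of 0.05. All 20 lost their call when a day 4 or a day 8 knockout library was left out, and the day 0 knockout libraries stood apart in depth and in the share of counts on multiples of 4. The part of library make-up in these differences was not tested.

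Interferon-related genes had the higher step in the knockout lines, by 11.67 (log2) for Mx2, 7.04 for Ddx60, 6.20 for Gbp2b, 6.04 for Gbp3, 5.38 for Gbp2 and 2.62 for B2m. Ifitm2 had the lower step (−2.88). The fitted value of Mx2 rests on a knockout day 0 group at 0 counts and is no bound.

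Signalling and early response genes with a higher step were Lefty1 (3.80), Fgfr2 (3.24), Ier3 (2.85) and Id2 (2.71), and so was the methyltransferase cofactor Dnmt3l (2.58). Actc1 (10.04) had no counts at knockout day 0. Klhdc7a (9.38) and Kctd12 (14.41) had no counts in wild type day 4, so their values rest on that library.

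Lower steps in the knockout lines were those of Mgat5b (−2.91), Plagl2 (−2.53), Cabp1 (−2.49), Sall3 (−2.43) and Ablim1 (−2.42). For Cabp1 the levels were 18.02 and 16.2 TPM in knockout day 4 and 37.8 and 31.1 TPM in knockout day 0, against 29.7 TPM in wild type day 4 and 15.1 TPM in wild type day 0.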

How the results depend on the processing

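The count of 3650 genes called in the course moved by over 1.5 times under DESeq2 (5968), in the 4 libraries with no block (2325), with protein-coding genes only (2066), and without the 3 day 8 libraries (2317, chosen after seeing the data). Leaving out 1 library at a time gave 675 to 4017. The count of 125 genes whose step differed was 228 with at least 1 CPM in 2 libraries, 1775 under DESeq2, 0 under limma-voom (4284 at an unadjusted p under 0.05), 373 on log2(TPM + 1), 309 on log2(TPM + 0.1), 12 with the replicate block, 1 with protein-coding genes only and 0 without the day 8 libraries (3659 unadjusted). Leaving out 1 library gave 0 to 199. Klhdc7a's step difference turned to −0.66 on log2(TPM + 1), which compresses low values. The cause of the other changes was not tested.

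The replicate block gave 3789 calls in the course, 3239 of them shared. It ended 8 and added 1 call among the 171 named genes. The calls lost without the day 4 library of G6 were 90, and of H8 94. Without the day 0 library of G6 they were 26, and of H8 40, and without the day 8 library of G6 25, and of H8 27. The 4 libraries with no block ended 25 calls, and limma-voom 20, those of T, Wnt3 and Ttr among them. No named gene changed direction in the course where the main fit or the alternative called it. Changes of sign in genes called in neither fit were not counted. Low counts at knockout day 0 limit small changes of rare genes.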
